A study of Mus musculus with 2 samples.

Results

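The genes described are 10 regulators of cell cycle entry in mouse ATDC5 cells: the CDK inhibitor genes Cdkn1a, Cdkn1b, Cdkn1c and Cdkn2a, the D cyclin genes Ccnd1, Ccnd2 and Ccnd3, and the p53 target genes Mdm2, Ccng1 and Bbc3. Members were chosen by name, and every probe set annotated with exactly 1 gene symbol equal to a member was kept, which gave 26 of 45037 non-control probe sets and 10 of 18193 genes. ATDC5 is an established mouse cell line that can be taken through cartilage differentiation. Serum-starved cells of both groups were given cycloheximide (CHX), which stops ribosomes from making protein (10 µg/ml, 30 min). The CHX+PBS group, the control, then received PBS for 30 min, and the CHX+Nell-1 group received rhNell-1, recombinant human protein, at 100 ng/ml for 30 min. Each group is 1 array of 1 RNA sample, so the series holds 2 arrays, no replicate and no test, and cells without CHX were not analysed here. The stated purpose was to find genes that answer Nell-1 without newly made protein.

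CDK inhibitors slow the cell cycle by blocking cyclin-dependent kinases. The CIP/KIP proteins p21 (Cdkn1a), p27 (Cdkn1b) and p57 (Cdkn1c) bind cyclin-CDK complexes, whereas INK4 proteins bind the D cyclin partners Cdk4 and Cdk6 themselves. D cyclins are made when mitogens arrive, switch on Cdk4 and Cdk6, and so start the phosphorylation of the retinoblastoma protein. The transcription factor p53 drives Cdkn1a, Mdm2, Ccng1 and Bbc3 after damage, and Mdm2 in turn marks p53 for degradation. In the growth plate, p57 accompanies the exit of chondrocytes from the cell cycle, and cyclin D1 accompanies their proliferation.

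Promoter sequences are shown first for the p53 targets, because these genes share a known regulator and did not share a direction on the arrays. RefSeq windows of build GRCm38.p6, from 250 bases before to 50 after an annotated transcript start, were found for 7 of the 10 members (12 windows), and Cdkn1c, Ccnd1 and Ccnd2 were not among them. Each window was searched for the p53 response element, a pair of adjacent decamers that reads the same on both strands, with no spacer. The best match in the window is printed in capitals, with 5 flanking bases on each side, 5′ to 3′ on the gene's strand.
Cdkn1a, upstream start, chr17:29090923-29090952, plus strand: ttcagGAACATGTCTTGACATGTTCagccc
Ccng1, chr11:40755457-40755486, minus strand: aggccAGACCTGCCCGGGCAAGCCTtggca
Bbc3, first of 3 windows, chr7:16309481-16309510, plus strand: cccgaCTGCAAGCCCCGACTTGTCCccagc
Mdm2, chr10:117710920-117710949, minus strand: gatagGAACTTGCCTAGCGACCATTgcggt

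The Cdkn1a and Ccng1 matches each had 1 mismatch to the 20-base element. Only 0.0883% of all 32851 windows held a match that good. The Cdkn1a match began 51 bases before the upstream of its 2 annotated starts, and the window of the downstream start had a best match with 5 mismatches. The Ccng1 match began 195 bases before the start. The Bbc3 match had 3 mismatches and began 97 bases before its start, and the other 2 Bbc3 windows had best matches with 5 and 6. A match with at most 3 was held by 6.29% of all windows, and Cdkn1b, not listed here as a p53 target, had one as good. The Mdm2 match had 5 mismatches, as 76.6% of windows did or better, so it does not stand apart from other promoters. Only 1 Mdm2 window was searched, and elements elsewhere in the gene or with a spacer were not looked for. A match describes letters in a window and shows neither binding nor a cause. No window of the 12 held an AP-1 site (TGACTCA, either strand) or a cAMP response element (TGACGTCA), which 5.20% and 1.79% of all windows held. The FOXO core GTAAACA, searched on both strands, occurred in 1 window each of Ccnd3, Mdm2 and Bbc3, and in 3.65% of all windows. In Bbc3 it lies in ggcgggttTGTTTACaaacaatg (chr7:16310086-16310108, plus strand), where the capitals mark the core read on the opposite strand.

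Values are MAS5 signals, linear brightness values that combine the probes of a probe set, and a log2 ratio is the Nell-1 signal divided by the PBS signal, in log2 units. The submitters state a 1.5-fold filter, so 1.5-fold is the threshold counted here. Signals of different probe sets depend on the probes and are not compared. The median of the mean signal over all probe sets was 64.3, and ratios below it were unstable. As a yardstick, all probe sets were divided into 10 equal bins of mean signal, and a robust SD of the log2 ratios was taken in each. It came to 0.21 in the brightest bin, 0.43 between signals of 121 and 282, and 1.49 between 23.8 and 39.1. This spread mixes noise with real differences and is not an error between cultures.

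Most member probe sets, 20 of 26, did not pass 1.5-fold in either direction, and neither did 26755 of all 45037. Of the 26, 2 were at least 1.5-fold higher with Nell-1, where 17.5% of all probe sets were, and 4 were at least 1.5-fold lower, where 23.1% were. Above the median signal lay 22 of the 26. Of these, 2 were higher (background 5.97%) and 2 were lower (background 8.48%), and 18 were neither. Taking the brightest probe set of each gene, 1 of 10 members was higher (background 13.1%), 2 were lower (background 19.0%) and 7 were neither. Each of these brightest probe sets lay above the median signal. Over all 11600 genes there, 529 were at least 1.5-fold higher and 874 were at least 1.5-fold lower. With so few members and 1 array per group, these counts are no result about the members. The median log2 ratio of the 10 brightest probe sets was -0.06, and the median over all 18193 genes was also -0.06. Above the median signal, 12 of the 22 member probe sets lay within 1 robust SD of the median of their signal bin. That is a smaller share than the 67.6% of all probe sets there.

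**Figure D1:**
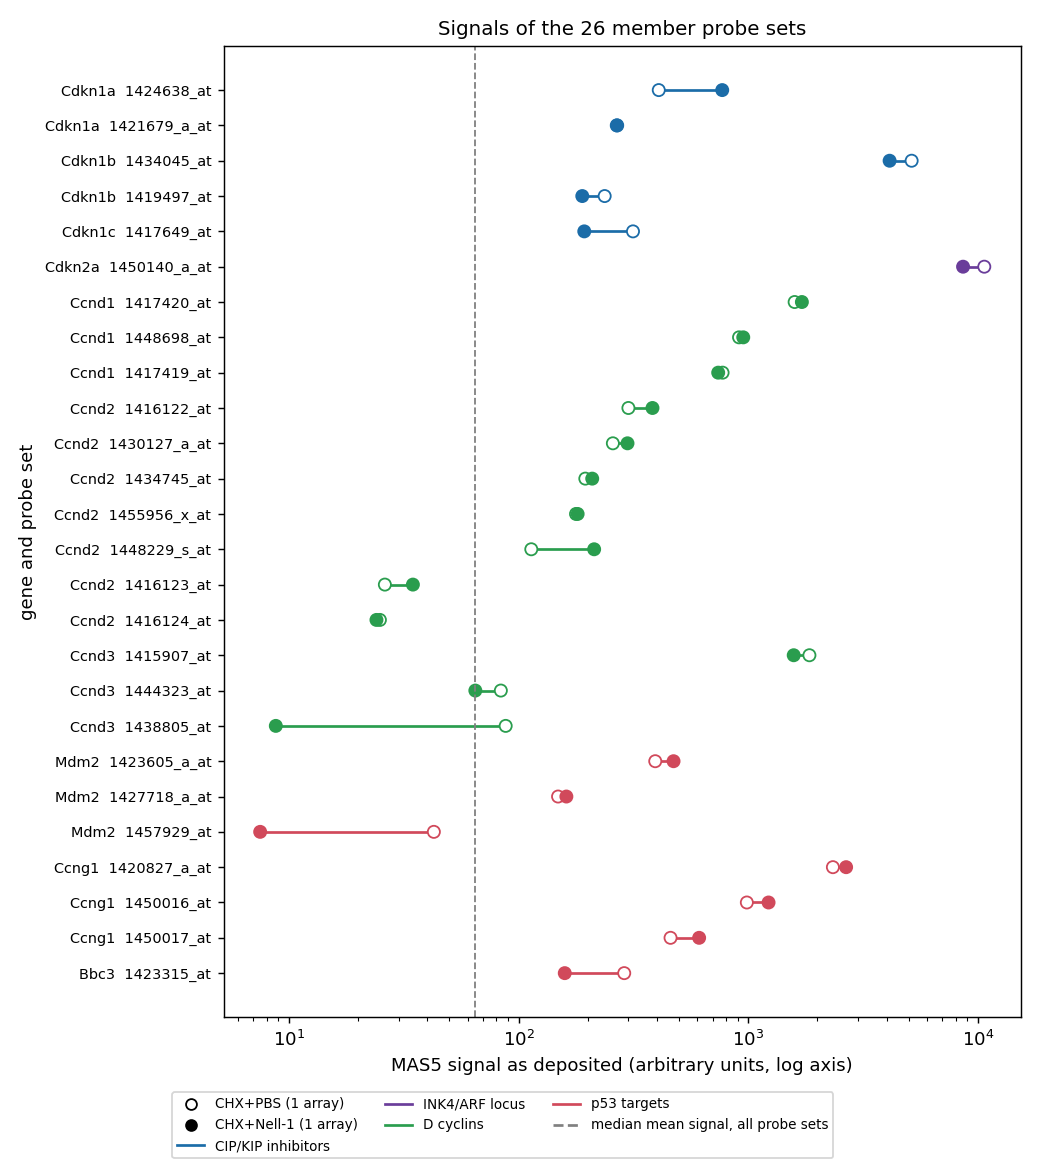
MAS5 signals (log axis) of every member probe set on the CHX+PBS array (open circles) and the CHX+Nell-1 array (filled circles), 1 array per group, coloured by role. Cdkn1a 1424638_at went from 408 to 770 and Bbc3 1423315_at from 288 to 159, while both symbols nearly coincide for the other Cdkn1a probe set and for Ccnd1; the dashed line is the median of the mean signal, 64.3.

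Among the CIP/KIP inhibitors, Cdkn1a was higher with Nell-1 on 1 probe set, while Cdkn1b and Cdkn1c were lower. Probe set 1424638_at of Cdkn1a, which encodes p21, read 408 on the PBS array and 770 on the Nell-1 array, 1.89-fold higher at a log2 ratio of 0.92. That ratio stood at percentile 99.3 of the 4503 probe sets with a mean signal between 282 and 653. In that bin 4.49% of probe sets were at least 1.5-fold higher. The other Cdkn1a probe set, 1421679_a_at, read 268 on the PBS array and 269 on the Nell-1 array, a log2 ratio of 0.01. Its suffix marks probes shared by alternative transcripts of the same gene. The 2 Cdkn1a probe sets therefore disagreed by 0.91 on the log2 scale. Among 3109 genes with exactly 2 probe sets above the median signal, the middle 50% of such gaps ran from 0.10 to 0.48. The deposited table does not show which transcript ends the 2 probe sets read.

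Cdkn1b, which encodes p27, an inhibitor abundant in resting cells, was lower by a small and, as deposited, nearly equal amount on both probe sets. Probe set 1434045_at read 5145 on the PBS array and 4125 on the Nell-1 array, and 1419497_at measured 237 and 189. The log2 ratios were -0.32 on both. They differed by 0.0051, where the median gap over the 3109 genes with 2 such probe sets was 0.23. Both probe sets were lower for 36.6% of those genes. After quantile normalization the 2 Cdkn1b ratios were less alike, at -0.34 and -0.28. Relative to the bin median the brighter probe set lay at -1.49 robust SDs, at percentile 6.82 of its bin, and the dimmer one at -0.64 robust SDs. Neither reached 1.5-fold.

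Cdkn1c, the imprinted gene of p57, was lower on its single probe set. Probe set 1417649_at read 315 on the PBS array and 193 on the Nell-1 array, 1.63-fold lower at a log2 ratio of -0.70. At this brightness 11.7% of probe sets were at least 1.5-fold lower, and Cdkn1c stood at percentile 7.95. No other probe set was annotated to Cdkn1c alone, so this ratio has no second reading.

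Cdkn2a was also slightly lower with Nell-1. This locus encodes the INK4 inhibitor p16 and, through another first exon, p19ARF, which restrains Mdm2. Its probe set 1450140_a_at read 10660 on the PBS array and 8615 on the Nell-1 array, a log2 ratio of -0.31 that did not reach 1.5-fold. The ratio lay at -1.44 robust SDs from the bin median, at percentile 7.26. The suffix marks probes common to several transcripts of the gene, so p16 and p19ARF RNAs were not told apart. Of the 4 inhibitor genes, 3 were thus lower and Cdkn1a was higher or level, and Cdkn1a and Cdkn1c alone passed 1.5-fold, in opposite directions.

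Among the remaining INK4 genes, Cdkn2b and Cdkn2c were slightly lower with Nell-1 and Cdkn2d was slightly higher. Cdkn2b, which encodes p15 and neighbours Cdkn2a, read 12193 on the PBS array and 10785 on the Nell-1 array, a log2 ratio of -0.18. Cdkn2c (p18) was at -0.20 and Cdkn2d (p19, an INK4 protein unrelated to ARF) at 0.16. None of the 3 reached 1.5-fold.

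The D cyclins did not share a direction. On the brightest probe sets Ccnd2 was higher, Ccnd3 lower and Ccnd1 nearly equal, and none of the 3 reached 1.5-fold there. Ccnd1, the cyclin most tied to growth factor signalling, was measured by 3 probe sets. They read 1592 and 1712 (1417420_at), 912 and 951 (1448698_at), and 773 and 740 (1417419_at) with PBS and Nell-1. The log2 ratios were 0.10, 0.06 and -0.06, all within 0.38 robust SDs of their bin median. Their range of 0.17 was below the lower quartile, 0.23, of the same range over 1299 genes with exactly 3 probe sets above the median signal. By brightest probe set, the log2 ratio of Ccnd1 was the nearest to 0 of the 10 members.

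Ccnd2 had 7 probe sets, and all 5 above the median signal were higher with Nell-1. The brightest, 1416122_at, read 301 on the PBS array and 383 on the Nell-1 array, a log2 ratio of 0.35. Of the others, 1430127_a_at measured 257 and 298 (0.21) and 1434745_at measured 195 and 209 (0.10). These 3 lay between 0.34 and 1.12 robust SDs above their bin medians. Probe set 1455956_x_at, a type with probes that may also match unrelated sequences, measured 178 and 181 (0.02). Probe set 1448229_s_at read 114 on the PBS array and 213 on the Nell-1 array, 1.88-fold higher at a log2 ratio of 0.91, and stood at percentile 97.8 of its bin. Its suffix marks probes that transcripts of other genes may share, and no other Ccnd2 probe set passed 1.5-fold. Such agreement is not rare. Of 176 genes with exactly 5 probe sets above the median signal, 15.9% had all 5 higher. Below the median signal, 1416123_at measured 26.2 and 34.7, and 1416124_at measured 24.9 and 24.0, where 67.3% of probe sets passed 1.5-fold in either direction.

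Ccnd3 was lower on each of its 3 probe sets, by amounts that differed widely. The brightest, 1415907_at, read 1846 on the PBS array and 1577 on the Nell-1 array, a log2 ratio of -0.23 at percentile 13.0 of its bin. Probe set 1444323_at measured 83.7 and 64.8, a log2 ratio of -0.37 that lay within 1 robust SD of its bin median. These 2 lay above the median signal, and 36.6% of genes with exactly 2 such probe sets had both lower. The probe set with the lowest mean signal, 1438805_at, measured 87.8 and 8.77, a log2 ratio of -3.33. That is 10.02-fold lower as deposited, at percentile 1.75 of its bin, and the mean of its signals was below the table's median. With 17.9, the 25th percentile of the mean signal, added to both signals, its log2 ratio was -1.99. The brightest Ccnd3 probe set did not share this size.

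**Figure D2:**
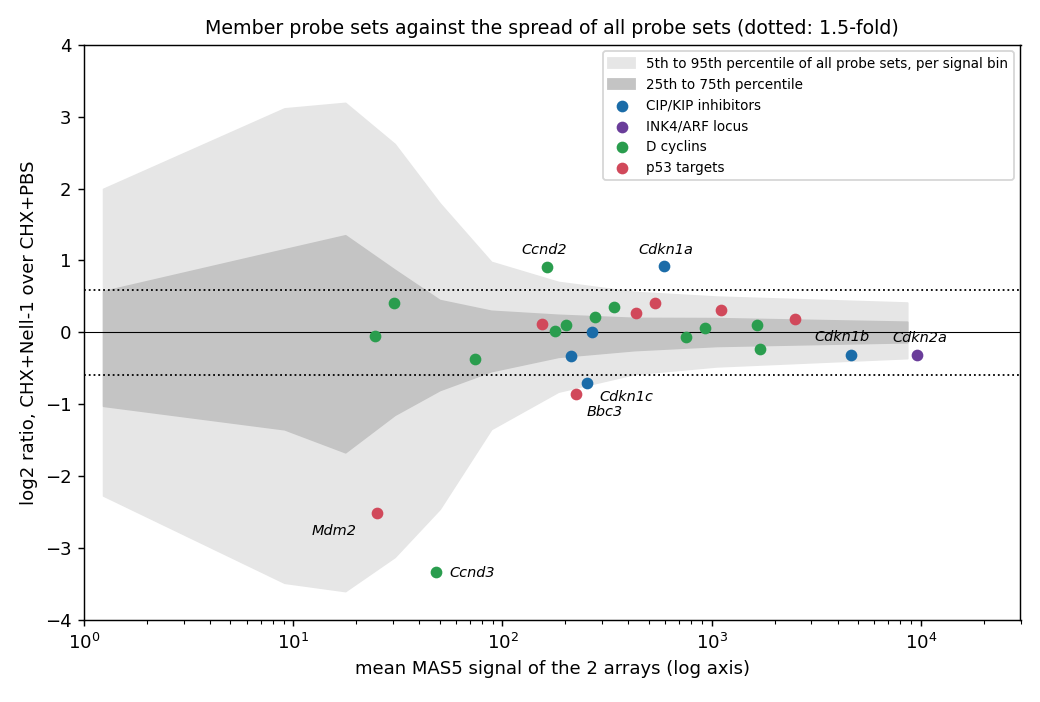
Log2 ratio of CHX+Nell-1 over CHX+PBS against the mean MAS5 signal (log axis) for the 26 member probe sets, over bands for all 45037 probe sets, drawn between the centres of 10 signal bins. Dotted lines mark 1.5-fold. The Cdkn1a and Ccnd2 points above the upper line stood at percentiles 99.3 and 97.8 of their bins, Bbc3 at 4.22 and Cdkn1c at 7.95, and most other members lie near 0.

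The p53 targets also went different ways. Ccng1, whose product cyclin G1 recruits a phosphatase to Mdm2, was higher on all 3 probe sets, none of which reached 1.5-fold. They measured 2336 and 2667 (1420827_a_at), 986 and 1226 (1450016_at), and 459 and 611 (1450017_at) with PBS and Nell-1. The log2 ratios were 0.19, 0.31 and 0.41, which lay 0.96, 1.12 and 1.32 robust SDs above their bin medians. All probe sets were higher for 22.9% of the 1299 genes with exactly 3 above the median signal.

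Mdm2, the ubiquitin ligase that restrains p53, was slightly higher on both probe sets above the median signal. Probe set 1423605_a_at read 394 on the PBS array and 473 on the Nell-1 array (log2 ratio 0.26), and 1427718_a_at measured 149 and 161 (0.12). Both lay within 1 robust SD of their bin median. Of the 3109 genes with exactly 2 probe sets above the median signal, 30.1% had both higher. The dimmest Mdm2 probe set, 1457929_at, measured 42.8 and 7.49, a log2 ratio of -2.51 on dim signals. In its bin 37.1% of probe sets were at least 1.5-fold lower. With 17.9 added to both signals its ratio was -1.26.

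Bbc3, which encodes the pro-apoptotic BH3-only protein PUMA, was lower with Nell-1. Its single probe set 1423315_at read 288 on the PBS array and 159 on the Nell-1 array, 1.82-fold lower at a log2 ratio of -0.86. It stood at percentile 4.22 of the 4504 probe sets between signals of 121 and 282, in which 11.7% were at least 1.5-fold lower. Bbc3 and Cdkn1a, both p53 targets, thus passed 1.5-fold in opposite directions, Bbc3 on its only probe set and Cdkn1a on 1 of 2. The other Cdkn1a probe set was level, at a log2 ratio of 0.01.

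The other genes of these pathways came from lists made with earlier results of these data known, and each gene is given by its brightest probe set. Over all genes above the median signal, 529 of 11600 were at least 1.5-fold higher and 874 lower, with a median log2 ratio of -0.03. The kinases driven by D cyclins, Cdk4 (7159 and 7794, log2 ratio 0.12) and Cdk6 (1393 and 1559, 0.16), and Cdk2 (0.06), the partner of cyclin E, did not reach 1.5-fold. Of 8 retinoblastoma-family and E2F genes, 7 lay above the median signal, and of these 1 was higher and 0 were lower by 1.5-fold, with a median of 0.18. Rbl1, which encodes the pocket protein p107, measured 596 and 981, a log2 ratio of 0.72 on 1 of 2 probe sets above the median signal, and the other gave 0.01. E2f4 was at -0.48 and E2f5 at 0.36, although another E2f5 probe set above the median signal gave -3.06. Rb1 itself lay below the median signal, at 66.0 and 42.0 (-0.65).

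Components that mark p21, p27 and D cyclins for degradation had a median of 0.17, with 1 of 7 at least 1.5-fold higher. This was Fbxo4, an F-box protein reported to bind cyclin D1, which measured 600 and 904 (log2 ratio 0.59). Skp2, the F-box protein for p27, and its cofactor Cks1b were both at 0.23 on the brightest probe set. Further Skp2 probe sets above the median signal ranged from -0.63 to 0.60. Dtl was at 0.17 on its brightest probe set and at 0.93 on another above the median signal. FOXO factors drive Cdkn1b and Ccng2, and the list of 3 such factors and Ccng2 had a median of -0.28 with none past 1.5-fold. Foxo1 measured 627 and 459 (-0.45), Foxo4 was at -0.14 and Ccng2 measured 1100 and 820 (-0.42). Foxo3 was level, at 1273 and 1297 (0.03), and another Foxo1 probe set above the median signal gave 0.08.

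Of 12 genes of the p53 family and its regulators, 11 were measured, and Trp53 was not analysed here. On the brightest probe set their median was 0.10, with 1 higher and 1 lower by 1.5-fold. Other probe sets above the median signal passed it for Usp7, at 2.44, and for Hipk2, at -1.48. Atm, the kinase that signals DNA breaks, read 59.0 on the PBS array and 202 on the Nell-1 array, a log2 ratio of 1.78, and its other probe set above the median signal gave 0.60. Trp73 measured 116 and 60.4 (-0.94) and disagreed with its other probe set at 0.42, and Atr was at 0.45. Among other p53 targets in cell death, none of 8 above the median signal passed 1.5-fold on the brightest probe set, with a median of -0.12. Perp was at -0.32, Fas at -0.27 and Tnfrsf10b, a death receptor, at 0.37. Dimmer probe sets above the median signal passed it for Tnfrsf10b, at 1.41, and for Siva1, at -0.89. Among p53 targets in arrest, repair and metabolism, none of 16 above the median signal passed 1.5-fold on the brightest probe set, with a median of -0.14, and another Tigar probe set was at 0.67. Gadd45a (2365 and 1777) was at -0.41, Rrm2b, a ribonucleotide reductase subunit, at 0.39 and the repair gene Ddb2 at 0.24.

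**Figure D3:**
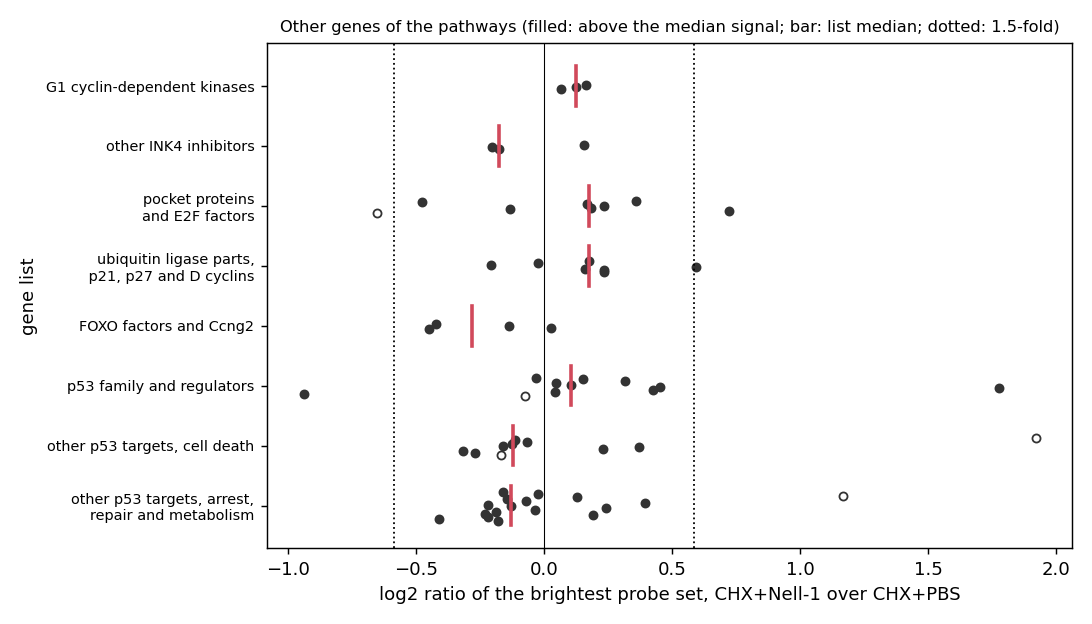
Log2 ratios of CHX+Nell-1 over CHX+PBS for genes of 8 related lists, 1 point per gene from its brightest probe set, filled where the mean signal was above the median. Red bars are list medians, which run from -0.28 for FOXO factors and Ccng2 to 0.17, and dotted lines mark 1.5-fold. Atm at 1.78 is the filled point farthest to the right.

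The arrays themselves were checked once for the label and for RNA. Of 10 chondrocyte markers 7 lay above the median signal, and 2 of these were at least 1.5-fold higher with Nell-1. They were Acan, the aggrecan gene (176 and 293, log2 ratio 0.74), and Sox6 (208 and 338, 0.70, with 3 of 4 probe sets past 1.5-fold). Col2a1 (909 and 1206, 0.41) and Sox9 (3375 and 2577, -0.39) did not reach 1.5-fold. Comp, Matn1 and Col10a1 lay below the median signal, with log2 ratios of -2.16, -0.89 and -1.06. Of 6 fibroblast and mesenchymal markers 5 lay above. Of the other cell types' markers measured, none of 5 endothelial, 2 of 5 haematopoietic, 2 of 5 epithelial, 1 of 3 adipocyte and 1 of 4 skeletal muscle genes lay above it. Summed signals of these lists were 219.5 and 96.0, 172 and 239.6, 610.0 and 517, 108 and 66.7, and 305 and 212 with PBS and Nell-1, and their part in the results was not tested. Ratios of 3′ to 5′ signal were 1.32 and 1.28 for Actb and 0.848 and 0.858 for Gapdh. All 24 poly-A spike-in probe sets were lower on the Nell-1 array, with a median log2 ratio of -0.49. The 18 hybridisation spike-ins were all lower too, with a median of -0.18. The values of Cdkn1b, Cdkn1c, Cdkn2a, Ccnd3 and Bbc3 point the same way. Those of the other 5 members, by brightest probe set, point the opposite way. The part of the spike-in differences in the values of the 10 members was not tested. For 9 measured reference genes the median was -0.07, and none reached 1.5-fold.

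**Figure D4:**
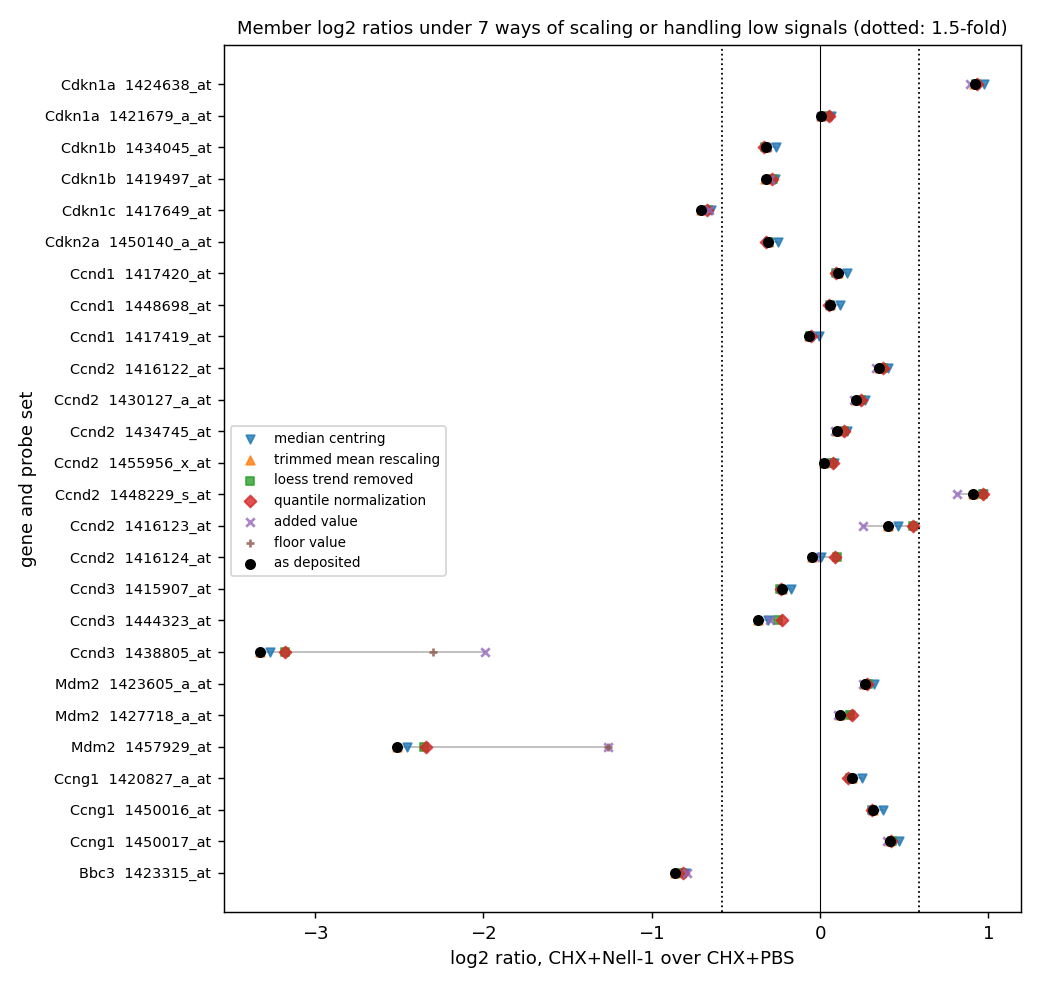
Log2 ratio of CHX+Nell-1 over CHX+PBS for each member probe set as deposited (black) and under 4 rescalings, an added value and a floor value of 17.9. Dotted lines mark 1.5-fold. The 22 probe sets above the median signal kept their sign and their side of 1.5-fold, while dim probe sets of Ccnd3 and Mdm2 moved to -1.99 and -1.26 with the added value. No rescaling used the spike-ins.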

How the data were processed

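The deposited values are intensities, linear MAS5 signals per probe set, 1 column per array. Per the submitters' processing notes they were made with Affymetrix Expression Console and MAS5, of versions not given in the sources used here. The 2% trimmed mean of the table was 500.0 on both arrays. Columns were matched to samples by name. Of 45101 probe sets, 64 were controls. Platform annotation gave 1 symbol to 34945 of the rest, several to 932 and none to 9160, and no probe set with several symbols included a member. Gene IDs of 34741 were found in a RefSeq table (GRCm38.p6), used for symbols. For values per gene, the brightest probe set over both arrays was taken. Log2 ratios, bins and counts were computed with Python 3.11.15, numpy 2.4.6, pandas 2.3.3 and statsmodels 0.14.6, and the code was tested on simulated data. With 1 array per group no test was run, and the number of arrays limits the precision.

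Members and gene lists were chosen with earlier results of these data known. Named genes were the members, every probe set, Actb, and in each list up to 3 genes of sufficient signal (at or above the median) whose ratios were farthest from 0. Genes given as further values of a list were chosen after their values were seen. With 2 arrays, no likeness of pattern between genes could be measured. Alternatives were 4 rescalings, an added or a floor value, a signal filter, a 2-fold threshold, probe set types and a mean over probe sets.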

Additional observations from a re-analysis of the deposited data

How the results depend on the processing

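Under median centring, trimmed mean rescaling, removal of a loess trend, quantile normalization and an added or floor value of 17.9, all 26 member probe sets kept their side of 1.5-fold and 25 kept their sign. The exception was Ccnd2 1416124_at, on dim signals, at -0.05 as deposited. These settings could move bright probe sets only a little, since the median log2 ratio over all probe sets stayed between -0.06 and 0. A rescaling to the spike-ins, whose poly-A median was -0.49, would be a larger shift and was not tried. The counts of members past 1.5-fold depended on other choices. At 2-fold, 0 member probe sets were higher and 2 lower, and by brightest probe set 0 members were higher and 0 lower. Without shared or cross-reacting probe sets 1 probe set, of Cdkn1a, was higher, and above the median signal 2 were lower. With the mean over probe sets 0 members were higher, since the level second probe set of Cdkn1a brought its mean to 0.46. By the same measure 4 were lower, since dim probe sets entered the means of Ccnd3 and Mdm2. No paired analysis was possible because each group has 1 array, and for the same reason no array could be left out. Ratios below the median signal are too unstable to read.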

Other observations

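The p53 element was also used to pick genes by sequence alone, a choice made after the member values were seen. A match with at most 1 mismatch occurred in 29 windows of 29 genes, of which 12 were measured and 7 lay above the median signal. Of these 7, 1 was at least 1.5-fold higher with Nell-1, which was Cdkn1a, and 0 were lower, with a median log2 ratio of 0.18. Cdkn1a and Ccng1 are members whose values prompted the choice. Without them 5 genes remained, 0 past 1.5-fold and with a median of 0.04, beside a median of -0.03 over all genes above the median signal. These were Gtse1, a mitotic gene whose product restrains p53 (453 and 513, log2 ratio 0.18), Mthfd1, a folate enzyme (1322 and 1498, 0.18), the ribosomal protein paralog Rps27l (20697 and 21348, 0.04), Calhm2 (-0.07) and Clec4b1 (-0.11). Rps27l was read by a probe set of a type that may also match other sequences.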
